A study of Mus musculus with 30 samples.

Results

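Small RNA of the cortex of 5xFAD mice, a model of Alzheimer's disease (AD), was sequenced by 2 protocols, PANDORA-seq in 8 libraries and traditional-seq in 7, and these 15 of the 30 libraries of the series were compared here. The libraries were taken by their sample labels, all from 6-month-old 5XFAD animals on the C57BL/6J background that wild-type (WT) controls share. The 5xFAD strain carries human transgenes driven by the Thy1 promoter, which acts mainly in neurons. For traditional-seq, adapters were ligated directly to RNA of 15 to 50 nt cut from a gel. For PANDORA-seq, the same kind of RNA was first treated with AlkB and T4 polynucleotide kinase (T4PNK). The other 15 libraries come from WT animals and entered only a comparison of read ends and a test of whether the protocols differed by genotype. A code in the file name is shared by 7 PANDORA-seq and 7 traditional-seq libraries, and whether a code stands for 1 mouse is not stated. The series describes its replicates as biological, and the tests treat each library as independent.

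Small RNA libraries record only molecules to which adapters can be joined and which reverse transcriptase can copy. Dicer leaves a 5'-phosphate and a 3'-hydroxyl on miRNAs, the ends that ligation needs, while many nucleases that cut tRNA or rRNA leave a 3'-phosphate or a cyclic phosphate. T4PNK removes such 3'-phosphates and adds a phosphate at the 5' end, and AlkB removes methyl groups such as those of 1-methyladenosine (m1A), 1-methylguanosine (m1G) and 3-methylcytidine (m3C), which can stop reverse transcriptase or make it misread. Fragments of tRNA (tsRNA) and of rRNA (rsRNA) are the classes for which such ends and methyl groups are best known, and mitochondrial tRNAs carry m1A or m1G at base 9 in many species.

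The following read sequences are the most abundant single sequence of an RNA in each protocol, with the last base in capitals because the position of that base is what differed most regularly. They come from the mitochondrial tRNA mt-Ts2 (GRCm38 chrM:11613-11671, + strand), the 5S rRNA gene n-R5s124 (chr8:123579450-123579568, - strand), the Y RNA gene Rny1 (chr6:47788069-47788180, - strand), the U1 snRNA gene Gm26444 (chr12:54729602-54729765, + strand), the box C/D snoRNA Snord85 (chr4:130749634-130749706, + strand), the box H/ACA snoRNA Snora7a (chr6:115807975-115808114, - strand), the RNase MRP RNA Rmrp (chr4:43492783-43493063, - strand) and the miRNA hairpin Mir148a (chr6:51269812-51269910, - strand).
mt-Ts2, PANDORA-seq, bases 1 to 40: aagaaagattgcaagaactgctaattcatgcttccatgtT
mt-Ts2, traditional-seq, bases 1 to 21: aagaaagattgcaagaactgC
n-R5s124, PANDORA-seq, bases 85 to 120: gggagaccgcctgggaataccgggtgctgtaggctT
n-R5s124, traditional-seq, bases 99 to the last: gaataccgggtgctgtaggcttT
Rny1, PANDORA-seq, bases 1 to 31: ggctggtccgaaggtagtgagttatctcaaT
Rny1, traditional-seq, bases 1 to 32: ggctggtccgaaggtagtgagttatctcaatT
Gm26444, PANDORA-seq, bases 125 to 163: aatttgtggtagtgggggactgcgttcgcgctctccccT
Gm26444, traditional-seq, bases 147 to 164: cgttcgcgctctcccctG
Snord85, PANDORA-seq, bases 42 to 68: ggtcgatgatgagagctttgttctgaG
Snord85, traditional-seq, bases 42 to 69: ggtcgatgatgagagctttgttctgagC
Snora7a, PANDORA-seq, bases 1 to 38: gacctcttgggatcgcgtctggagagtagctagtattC
Snora7a, traditional-seq, bases 125 to 140: acactctgcaacattA
Rmrp, PANDORA-seq, bases 5 to 37: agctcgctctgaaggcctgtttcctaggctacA
Rmrp, traditional-seq, bases 5 to 34: agctcgctctgaaggcctgtttcctaggcT
Mir148a, PANDORA-seq, bases 61 to 81: tcagtgcactacagaactttG
Mir148a, traditional-seq, bases 61 to 82: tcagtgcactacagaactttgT
In each of these pairs the last base lies at another position in each protocol, and in n-R5s124, Rny1, Gm26444, Snord85 and Mir148a the PANDORA-seq read stops 1 base earlier on the RNA than the traditional-seq read. The mature sequences of miRNAs that the results turn on, from RefSeq on GRCm38.p6 with the seed (bases 2 to 8) in capitals, are given next.
mmu-miR-148a-3p: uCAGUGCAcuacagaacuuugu
mmu-miR-128-3p: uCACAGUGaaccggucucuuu
mmu-miR-9-5p: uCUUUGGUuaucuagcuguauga
mmu-miR-218-5p: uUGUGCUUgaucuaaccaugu
No seed is shared among these 4 miRNAs.

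The PANDORA-seq files held 54926347 to 105876141 reads and the traditional-seq files 9370669 to 17053412 reads. They held 3393178 to 14536878 and 412622 to 1149526 distinct sequences. Where each distinct sequence is counted once below, the comparison therefore cannot be told apart from this difference in depth. Comparisons used reads of 15 to 42 nt, since traditional-seq files ended at 42 nt, and the unit RPM is a count scaled to all such reads of a library, not to RNA length. A read counted for an RNA class when its whole sequence matched a transcript of GENCODE M21 in the sense direction without a mismatch. This matched 15.9% to 33.2% of reads in PANDORA-seq and 46.8% to 59.1% in traditional-seq. The 28S rRNA and most nuclear tRNAs were not in this reference, so their fragments are among the unmatched reads. As a check of the tissue, 10 neuronal miRNA hairpins (Mir124a, Mir9, Mir128 and Mir138 genes, 7 of them over 1 RPM) summed to 1710 to 7093 RPM in PANDORA-seq and 87659 to 206136 RPM in traditional-seq. The 3 oligodendrocyte hairpins summed to 27.1 to 163 and 435 to 1488 RPM, and 10 hairpins of blood, vessels, muscle, liver and gut to 21.5 to 233 and 2244 to 7297 RPM. Of the latter, endothelial Mir126a led traditional-seq with 4420 RPM, against 16.1 RPM in PANDORA-seq, muscle Mir206 alone had the higher mean in PANDORA-seq (41.5 against 14.8 RPM), and Mir133b (muscle) and Mir194-1 (liver and gut) were near 0 in both protocols, with means from 0.00443 to 0.0988 RPM. In tissue RNA, fewer cells of a type and less RNA per cell cannot be told apart.

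All 20 classes compared differed in level between the protocols (two-sided exact permutation test, adjusted p from 0.000345 to 0.046 over 20 classes), 17 higher and 3 lower in PANDORA-seq. The 17 include the unmatched reads. RPM are shares of a fixed total, so a lower miRNA share leaves more of it for the other classes. With the total of reads as library size, the median log2 fold change of all genes was 2.03. Whether a class rose more than the bulk of genes was not tested. In 10 of the 20, the libraries of the protocols did not overlap, against 46.8% of all 13058 genes tested one by one. Reads of miRNA hairpins, the Dicer products that guide Argonaute proteins, ranged from 15404 to 59389 RPM in PANDORA-seq with a median of 32622. In traditional-seq they ranged from 360956 to 502907 RPM with a median of 383950, so each traditional-seq library lay above each PANDORA-seq library. The geometric mean was 13.1-fold lower in PANDORA-seq (34175 ± 14512 against 417995 ± 63413 RPM, SD, n = 8 and 7; exact permutation test, adjusted p = 0.000345).

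Reads of the 22 mitochondrial tRNAs were also lower in PANDORA-seq, at 8082 to 43817 RPM with a median of 19602 against 35877 to 59516 RPM with a median of 41049. The groups overlapped, and the geometric mean was 2.75-fold lower (exact permutation test, adjusted p = 0.00244). Relative to matched reads alone, the difference was -0.50 on the log2 scale and lost its call (adjusted p = 0.144, exact permutation test). Reads of the 13 mitochondrial mRNAs were 1.74-fold lower, with 1430 to 6611 against 2222 to 9995 RPM and adjusted p = 0.046 in the exact permutation test. That call was lost when any of 11 of the 15 libraries was left out. Relative to matched reads the difference turned to 0.16 on the log2 scale and was not called (adjusted p = 0.662, exact permutation test). The 2 mitochondrial rRNAs, by contrast, took 2155 to 30469 RPM in PANDORA-seq with a median of 4138 and 1756 to 3659 RPM in traditional-seq with a median of 2820 (1.98-fold higher, exact permutation test, adjusted p = 0.0301). The highest of these PANDORA-seq values came from replicate 7, and the next was 7496 RPM. Leaving out traditional-seq replicate 2, 4 or 6 took the adjusted p of the exact permutation test above 0.05 (0.0709, 0.0536 and 0.0679).

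The nuclear rRNAs rose. The 5S rRNA, transcribed by RNA polymerase III and part of the large ribosomal subunit, took 23418 to 51351 RPM in PANDORA-seq with a median of 33571 and 977 to 7131 RPM in traditional-seq with a median of 2677. The libraries did not overlap, and the geometric mean was 13.6-fold higher (exact permutation test, adjusted p = 0.000345). The 18S rRNA of the small subunit took 20627 to 75572 RPM against 1420 to 19374 RPM (5.75-fold higher, no overlap, the same adjusted p in the exact permutation test). As a single gene in edgeR it was not called with TMM (log2 fold change 0.50). With the total of reads as library size it was called higher (2.14). Its traditional-seq values spread over more than its PANDORA-seq values on a ratio scale.

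Among the other RNAs of the nucleus, spliceosomal snRNAs took 3414 to 10131 RPM in PANDORA-seq and 466.3 to 1091 RPM in traditional-seq (10.9-fold higher). The 7SK RNA, which holds the elongation factor P-TEFb inactive, took 806 to 6083 against 114 to 685 RPM (7.69-fold). The 7SL RNA of the signal recognition particle took 596 to 2587 against 64.5 to 1167 RPM (5.54-fold, with overlap). Box H/ACA snoRNAs, which guide pseudouridylation, were 4.10-fold higher, whereas box C/D snoRNAs, which guide ribose methylation, were only 1.93-fold higher and overlapped between the protocols. RNase P and MRP RNA (3.59-fold) and vault RNA (3.04-fold) did not overlap, and scaRNAs (2.61-fold) did. Y RNAs, partners of the Ro60 protein, took 15347 to 44632 against 6163 to 19909 RPM (1.86-fold higher, with overlap). Fragments of mRNA were 3.92-fold higher and those of lncRNA 2.94-fold higher. Unmatched reads took 723254 ± 57204 RPM in PANDORA-seq and 473099 ± 53941 RPM (SD) in traditional-seq. Each class named here passed the two-sided exact permutation test, the highest adjusted p being 0.0064 for Y RNA, whose call was lost with a replicate block by file code (0.75 on the log2 scale, adjusted p = 0.0521, exact permutation test over pairs).

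**Figure D1:**
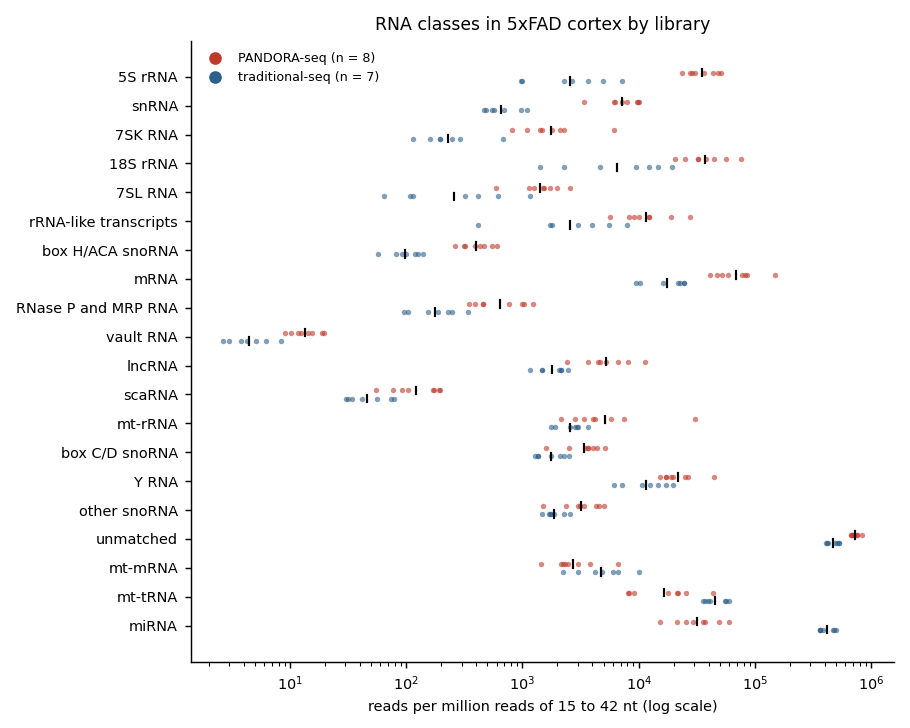
RPM of each RNA class (log axis) in the 8 PANDORA-seq and 7 traditional-seq libraries of 5xFAD cortex, 1 point a library, with a black bar at the geometric mean. Only miRNA, mt-tRNA and mt-mRNA sit lower in PANDORA-seq, and the miRNA points of the protocols lie far apart (at most 59389 against at least 360956 RPM).

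Single genes were tested with edgeR's quasi-likelihood test after TMM normalization, which centres the libraries on the bulk of genes rather than on all reads. Of 13058 genes tested, 1192 (9.13%) were higher and 1123 (8.60%) lower in PANDORA-seq where a call needs a Benjamini-Hochberg adjusted p below 0.05 and more than a 2-fold change. The centring matters: the median log2 fold change of all genes was 0.13 with TMM and 2.03 with the total of reads as library size, where 11603 genes were higher and 389 lower. With TMM, 313 of 383 miRNA hairpins were lower and 20 higher, with a median log2 fold change of -4.59. All 13 mitochondrial mRNAs and 18 of 22 mitochondrial tRNAs were lower, but with the total of reads as library size 3 mitochondrial mRNAs and 13 mitochondrial tRNAs were lower and 4 of these tRNAs higher. Of 33 snRNA genes, 17 were higher and 4 lower (29 and 2 with the total of reads). Box C/D snoRNAs split into 18 higher and 26 lower of 81, but into 55 and 8 with the total of reads, so that the balance turned. Box H/ACA snoRNAs split into 15 and 11 of 36 (25 and 3 with the total of reads). Of 11249 mRNAs, 981 were higher and 530 lower, against 10480 and 49 with the total of reads.

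Mir148a, Mir128-1 and Mir9-1 were the hairpins with the highest mean level. A read that fit several hairpins was counted at 1 of them. Values of Mir128-1 and Mir9-1, which have further copies in the reference, are therefore not specific to that locus. Mir148a took 19.2 to 171 RPM in PANDORA-seq (median 42.9) and 24377 to 60832 RPM in traditional-seq (median 37662). It fell by 11.18 ± 0.85 (SE) on the log2 scale in edgeR (adjusted p = 2.19e-09). Mir128-1, from a miRNA enriched in neurons, took 981 to 2748 against 51732 to 133171 RPM, and Mir9-1, whose miRNA acts in neural progenitors and neurons, 629 to 4053 against 20424 to 54740 RPM. Their log2 fold changes were -7.57 ± 0.81 and -6.17 ± 0.72 (SE; edgeR, adjusted p = 3.41e-07 and 1.25e-06). With the total of reads as library size, the log2 fold changes of Mir148a, Mir128-1 and Mir9-1 were -9.29, -5.47 and -4.06, and whether they differ from that of the class was not tested.

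Among genes called in edgeR with a mean of at least 10 RPM and no overlap between the protocols, the 5 with the largest fall were Mir218-1, Gm25022, Mir1a-1, Mir148a and Gm24949. Mir218-1, a hairpin of the motor neuron miRNA miR-218, took at most 0.134 RPM in PANDORA-seq and 18.6 to 168 RPM in traditional-seq. These are only reads that fit this gene alone, not the level of miR-218. Reads of the arm miR-218-5p, counted at any hairpin, averaged 55.6 RPM in PANDORA-seq and 6373 RPM in traditional-seq. Mir1a-1, from a muscle miRNA, took 0.879 to 3.63 against 268 to 7850 RPM, and its reads, like those of Gm25022, fit more than 1 gene and were counted at 1 of them. The 5 with the largest rise were Gm26676, Gm26117, Mup20, Snord14d and Jmjd6. Snord14d, a box C/D snoRNA, took 28.0 to 88.4 RPM in PANDORA-seq and at most 0.290 RPM in traditional-seq, with 47.1% of its reads at 38 nt. Of the other risers, 99.4% of the reads of Gm26117 were 15 nt long and 86.4% of those of the demethylase gene Jmjd6 were 16 nt long, so these values rest on very short sequences.

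The length of the reads shifted in most classes. Mean length differed in 17 of 19 classes (exact permutation test, adjusted p of at most 0.000347), all 17 without overlap, with 16 classes longer and 1 shorter in PANDORA-seq. Over all reads, the most frequent length was 33 nt in PANDORA-seq, with 10.2% of reads, and 22 nt in traditional-seq, with 31.5%. Unmatched reads peaked at 33 nt with 12.5% in PANDORA-seq and at 23 nt with 23.4% in traditional-seq.

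The mitochondrial tRNAs showed the widest change in length. Their mean length was 37.3 to 38.7 nt in PANDORA-seq (median 38.3) and 19.8 to 21.2 nt in traditional-seq (median 20.4). In PANDORA-seq 68.7% ± 8.89 (SD) of their reads were 40 nt long, whereas in traditional-seq the most frequent length was 21 nt with 24.4% ± 5.49 (SD). All 22 mitochondrial tRNAs had a longer mean length in PANDORA-seq, 19.7 to 39.8 nt over the tRNAs against 16.8 to 23.8 nt. For mitochondrial rRNAs the mean was 32.9 ± 0.43 against 22.7 ± 0.67 nt, and for mitochondrial mRNAs 32.7 ± 0.27 against 25.8 ± 0.71 nt (SD).

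Fragments of 5S rRNA had a mean length of 34.6 ± 0.55 nt (SD) in PANDORA-seq, with a peak at 36 nt (26.9% of reads). In traditional-seq they averaged 24.1 ± 2.03 nt (SD), and no length held more than 7.56%. For 18S rRNA the means were 31.2 ± 0.83 and 24.9 ± 0.58 nt (SD). Reads of snRNA peaked at 39 nt (18.9%) and at 17 nt (14.4%) in PANDORA-seq and at 18 nt (31.3%) in traditional-seq. Box H/ACA snoRNA reads peaked at 38 nt with 21.7% against 20 nt with 27.0%, and 72.6% of the traditional-seq reads were 20 to 24 nt long. Box C/D snoRNA reads peaked at 38 nt with 11.02% against 28 nt with 23.1%. The means of 7SK (32.9 against 24.9 nt), 7SL (31.8 against 24.2 nt) and mRNA (32.6 against 23.5 nt) moved in the same direction.

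For 3 classes the length did not rise with the others. Reads of miRNA hairpins were shorter in PANDORA-seq, with a mean of 21.05 to 21.59 nt (median 21.5) against 21.77 to 21.98 nt (median 21.9). Their peak moved from 22 nt in traditional-seq (54.3% of reads) to 21 nt in PANDORA-seq (41.5%). The direction turned when 1 base was added to each PANDORA-seq read to allow for an offset of 3' ends described below (a difference of 0.521 nt, exact permutation test, adjusted p = 0.000347), and when each distinct sequence counted once (3.25 nt). Y RNA reads averaged 31.5 ± 0.91 and 30.8 ± 0.35 nt (SD; exact permutation test, adjusted p = 0.0861), although their profiles differed: 56.9% of the traditional-seq reads were 32 nt long, and no length held more than 11.5% in PANDORA-seq. Without PANDORA-seq replicate 7, which had the lowest mean of 29.5 nt, the difference was 0.978 nt (adjusted p = 0.000615, exact permutation test). RNase P and MRP RNA reads, which came mostly from Rmrp, averaged 30.2 to 31.5 nt (median 31.16) and 30.8 to 31.7 nt (median 31.04; exact permutation test, adjusted p = 0.671). With 1 base added, this difference was 0.901 nt and that of Y RNA 1.70 nt, and both passed the test (adjusted p = 0.00342 and 0.00164, exact permutation test). Both also passed it without the most abundant gene of the class (6.37 nt for RNase P and MRP RNA and 3.91 nt for Y RNA). The same held with each distinct sequence counted once (3.03 and 2.15 nt).

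**Figure D2:**
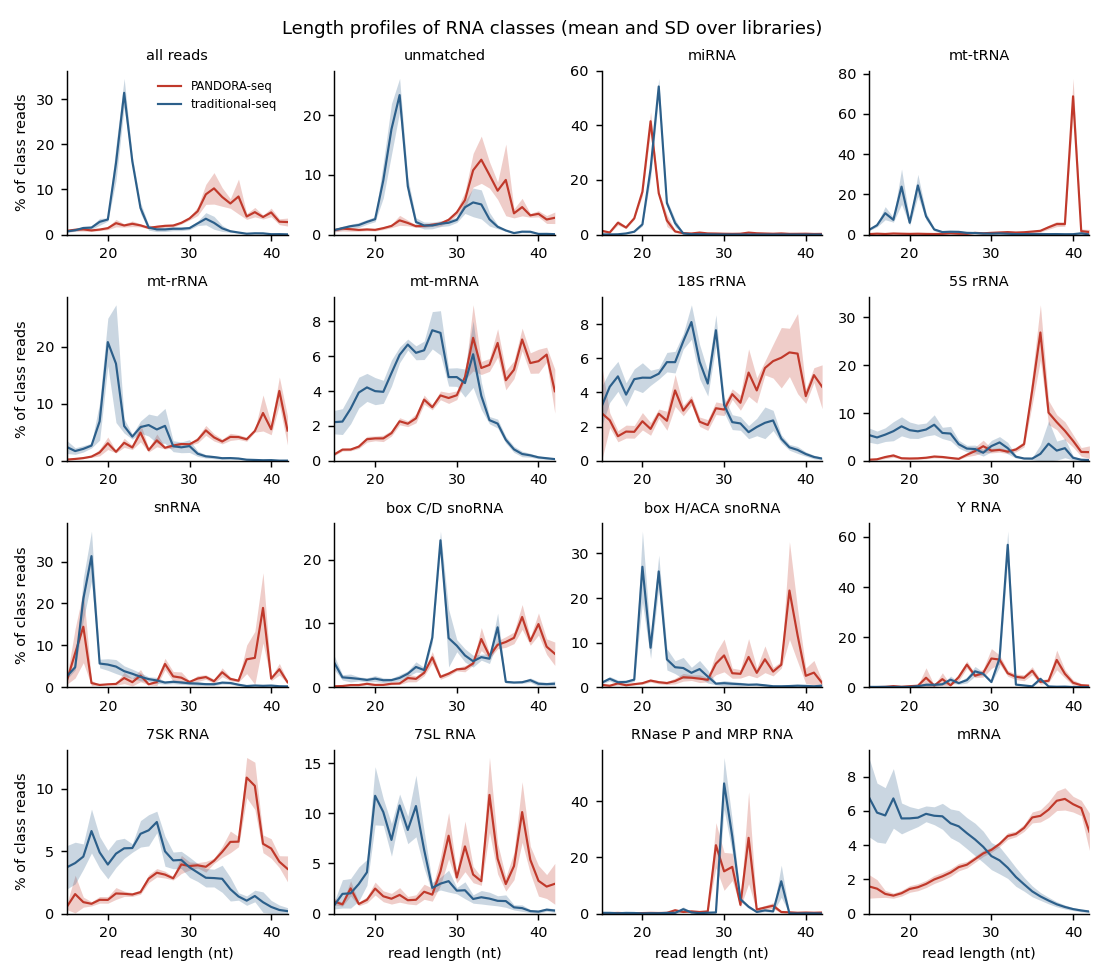
Percentage of reads of a class at each read length from 15 to 42 nt, as the mean (line) and SD (band) over 8 PANDORA-seq and 7 traditional-seq libraries, with all reads and unmatched reads in the first panels. The mt-tRNA panel turns from lengths around 21 nt to a single peak at 40 nt, while the miRNA peak moves by 1 nt, from 22 to 21 nt.

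The 3' ends lay 1 nt apart between the protocols in every class examined. For each gene with at least 5 RPM in both protocols, the positions of read ends were compared after PANDORA-seq ends had been shifted by -3 to 3 nt, and the share of reads whose ends fell on common positions was averaged over the genes of a class. For 3' ends the overlap was highest when PANDORA-seq ends were moved 1 nt downstream in 13 of 13 classes. In single PANDORA-seq libraries this held for 13 of 13 classes in 7 libraries and for 12 in replicate 3. For 5' ends it was highest without a shift in 11 of 13 classes, the exceptions being 5S rRNA (-1 nt) and 7SL RNA (1 nt). In these 2 the overlap at the best shift was 31.8% and 41.7%, close to the 30.6% and 39.2% without a shift.

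For miRNA hairpins, 3' ends shared 71.9% at a shift of 1 nt and 37.5% without a shift, over 151 genes. Their 5' ends shared 86.7% without a shift and at most 9.11% at any other. For box C/D snoRNA (37 genes) the 3' ends shared 51.2% at 1 nt and 18.98% at 0 nt, for snRNA (8 genes) 43.5% and 21.6%, and for 5S rRNA (3 genes) 57.6% and 32.2%. The gap was smaller in 18S rRNA, with 34.9% at 1 nt and 26.5% at 0 nt, and smallest in mitochondrial rRNA (2 genes), with 23.3% and 15.7%.

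The WT libraries showed the same values of the best shift, 1 nt for 3' ends in 13 of 13 classes and 0 nt for 5' ends in 11 of 13. Between AD and WT libraries of the same protocol the best shift was 0 nt in 13 of 13 classes for both ends. The cause of the offset was not tested. A loss of 1 base from each read in the deposited PANDORA-seq files cannot be told apart here from an offset of the RNA ends, and values on CCA ends, last bases, 3' ends and miRNA length carry this limit. Values that rest on the last base are given below as deposited, with the effect of adding 1 base to each PANDORA-seq read where it changes a call. For the last base of lncRNA and mRNA reads this effect was not computed.

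**Figure D3:**
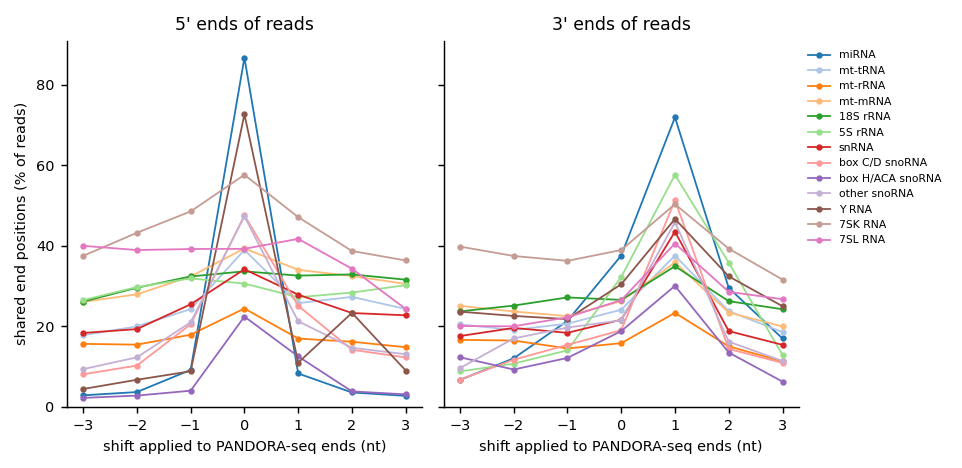
Percentage of reads with end positions in common between PANDORA-seq and traditional-seq (mean over genes of a class, vertical axis) after PANDORA-seq ends were shifted by -3 to 3 nt (horizontal axis), for 5' ends (left) and 3' ends (right) of 13 classes. At the 5' end most lines peak at 0 nt, and at the 3' end all 13 peak at 1 nt.

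Ends on RNAs with a sharp terminus show the offset read by read. Of miRNA reads aligned to a RefSeq mature arm, 97.0% ± 0.84 began at the arm's first base in PANDORA-seq and 96.9% ± 0.34 (SD) in traditional-seq (exact permutation test, adjusted p = 0.875). At the 3' end, 50.2% ± 4.77 of traditional-seq reads stopped at the arm's last base and 17.6% ± 2.74 at 1 base before it. In PANDORA-seq these shares were 17.6% ± 1.90 and 46.4% ± 2.14 (SD), and neither share overlapped between the protocols (exact permutation test, adjusted p = 0.000355 for both). Of 105 arms with at least 10 RPM in both protocols, the most frequent 3' end lay 1 base upstream in PANDORA-seq for 80, at the same base for 11, 1 base downstream for 7 and elsewhere for the rest. The most frequent 5' end was the same base for 101 of 105.

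Mitochondrial tRNAs end with a CCA that is added after transcription. The shares that follow for mitochondrial tRNA, 5S rRNA, U1, U12 and Rny1 are of reads ending in the last 5 bases of the RNA. Of such mitochondrial tRNA reads, 48.6% to 69.3% of those of traditional-seq held the whole CCA (mean 55.6%). In PANDORA-seq 0.165% to 0.289% did (mean 0.213%), and 54.1% ± 8.62 (SD) stopped after CC, against 14.4% ± 4.11 in traditional-seq. For 5S rRNA, 53.6% ± 6.06 of traditional-seq reads at the 3' end stopped at the last T and 0.866% ± 0.290 of PANDORA-seq reads did, while 53.1% ± 8.93 of the latter stopped 1 base before and 40.4% ± 7.31 (SD) stopped 2 bases before it. This last T belongs to the 2 T added to 5S copies in the reference, past which no read could match. For the U1 snRNA, 96.0% ± 2.32 of such traditional-seq reads stopped at its last base, a G, and 93.6% ± 3.77 (SD) of such PANDORA-seq reads stopped 1 base before.

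Of reads ending in the last 5 bases, the minor spliceosomal U12 RNA had 79.2% ± 11.6 of those of traditional-seq at its last base and 62.1% ± 4.83 (SD) of those of PANDORA-seq 1 base before it. The traditional-seq share rests on few reads, since U12 averaged 6.25 RPM there, and ranged from 57.1% to 91.7%. Such reads of Rny1, most of whose reads end further upstream, stopped most often 2 bases before the annotated end in traditional-seq (46.5%) and 3 bases before it in PANDORA-seq (61.7%). Each of these shares at the 3' end of mitochondrial tRNA, 5S rRNA, U1, U12 and Rny1 differed between the protocols (two-sided exact permutation test, adjusted p = 0.000216), with a higher adjusted p of 0.0033 for 5S rRNA reads that stop 1 base before the end, and 0.000155 is the smallest unadjusted p the test can give.

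**Figure D4:**
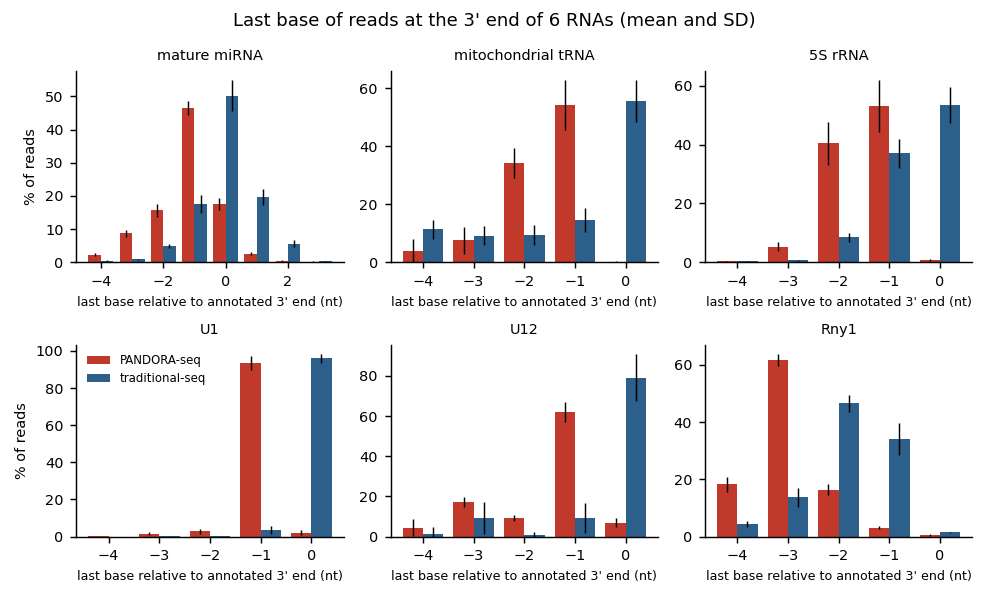
Position of the last base of reads relative to the annotated 3' end (0 is the last base, horizontal axis, nt) in percent of the reads that end near it, as the mean and SD over 8 PANDORA-seq and 7 traditional-seq libraries. For miRNA, mitochondrial tRNA, 5S rRNA, U1, U12 and Rny1 the tallest PANDORA-seq bar stands 1 nt to the left of the tallest traditional-seq bar.

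The share of reads that start or stop within 2 nt of an annotated end was tested in classes of at least 100 RPM where it reached 1%, apart from snoRNAs whose symbol gives no box type. These, untested, had shares of 33.8% against 14.7% at the 5' end and 21.8% against 25.6% at the 3' end. Of 8 classes, 6 differed at the 5' end, 3 higher and 3 lower in PANDORA-seq. Mitochondrial tRNA reads started at the tRNA's 5' end in 72.8% ± 9.34 against 57.1% ± 9.33 (exact permutation test, adjusted p = 0.0133), and box H/ACA snoRNA reads in 55.5% ± 13.2 against 16.1% ± 3.13 (SD; exact permutation test, adjusted p = 0.00124). Without mt-Ts2, which gave most reads of its class, the mitochondrial tRNA share was 10.3% against 3.64%. For 5S rRNA 5.74% of reads started at the 5' end against 1.19%, but the call was lost without the most abundant gene (6.60% against 4.06%, adjusted p = 0.162, exact permutation test), and the direction turned with distinct sequences (-0.144 percentage points) and with sequences of a single gene (-0.215 percentage points). Neither turned value was called (adjusted p = 0.854 and 0.973, exact permutation test). With an end taken within 5 nt the mitochondrial tRNA share was 73.2% against 70.5% and lost its call (adjusted p = 0.611, exact permutation test), and with each distinct sequence counted once so did that of box H/ACA snoRNA (14.6% against 14.2%, adjusted p = 0.831, exact permutation test). It was lower in PANDORA-seq for mitochondrial rRNA (12.3% against 34.2%), box C/D snoRNA (17.7% against 23.98%) and miRNA (96.2% against 98.7%). The miRNA share here is of all reads of hairpins with a mature arm, not only of reads aligned to one. With exact ends it lost its call (94.1% against 95.8%, adjusted p = 0.0825, exact permutation test). With a replicate block by title number the miRNA, mitochondrial rRNA and mitochondrial tRNA calls were lost. For Y RNA the 5' share was 79.4% ± 10.3 and 80.8% ± 5.07 (SD; exact permutation test, adjusted p = 0.77).

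At the 3' end 5 of 8 classes differed, 2 higher and 3 lower. The share of mitochondrial tRNA reads near the CCA end was 13.4% ± 4.24 against 3.31% ± 1.36, and that of box C/D snoRNA reads 21.8% ± 2.76 against 13.9% ± 2.35 (SD; exact permutation test, adjusted p = 0.000746 for both). For box C/D snoRNA the direction turned with an end taken within 5 nt (40.1% against 45.3%) and with each distinct sequence counted once (16.1% against 24.8%). For mitochondrial tRNA it turned with exact ends (0.0338% against 2.34%) and with distinct sequences (10.4% against 11.05%), the latter without a call (adjusted p = 0.291, exact permutation test). Lower in PANDORA-seq were miRNA (80.2% against 96.9%), Y RNA (4.02% against 11.1%) and 7SK RNA (0.214% against 1.28%). The 7SK call was lost with distinct sequences (adjusted p = 0.472, exact permutation test) and with a replicate block by file code. The Y RNA share turned with an end within 5 nt (17.5% against 16.8%) and was not called there (adjusted p = 0.976, exact permutation test). With exact ends it lost its call (adjusted p = 0.0679, exact permutation test). With 1 base added to each PANDORA-seq read the Y RNA share became 13.98% against 11.1%, in the other direction but without a call (adjusted p = 0.469, exact permutation test). The miRNA share became 88.2% against 96.9%. The 5S rRNA (83.0% against 82.1%) and snRNA (47.9% against 49.1%) shares did not pass the test (adjusted p = 0.892 in both, exact permutation test). Both did with exact ends (0.770% against 44.1% and 1.34% against 46.1%) and with sequences of a single gene (77.6% against 15.3% and 35.7% against 51.7%), and so did 5S rRNA without its most abundant gene (65.6% against 20.2%).

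The last base of reads was a C or T less often in PANDORA-seq in 9 of 15 classes and more often in 4, out of 13 that differed. Left untested were snoRNAs without a box type (58.4% against 38.3%) and the rRNA-like transcripts (53.7% against 61.9%). Among the lower classes the widest gaps were in box C/D snoRNA (49.3% against 76.0%), 7SL RNA (57.0% against 83.5%), miRNA (61.2% against 84.7%) and Y RNA (73.3% against 95.4%). The share was higher for snRNA (70.8% against 40.1%), mitochondrial tRNA (92.5% against 79.9%), box H/ACA snoRNA (70.0% against 58.4%) and 5S rRNA (95.8% against 89.8%). The 5S rRNA call was lost without PANDORA-seq replicate 4 or traditional-seq replicate 5 or 7 (5.795, 4.39 and 5.13 percentage points). Its direction turned with distinct sequences, without a call (-3.09 percentage points, adjusted p = 0.187, exact permutation test). With a replicate block by file code the 5S rRNA and box H/ACA snoRNA calls were both lost (adjusted p = 0.0541 for each, exact permutation test over pairs). The box C/D snoRNA call was lost with distinct sequences (-1.22 percentage points, adjusted p = 0.124, exact permutation test) and the 7SL call with sequences of a single gene (-13.2 percentage points, adjusted p = 0.0754, exact permutation test). With 1 base added, the snRNA share became 47.4% and lost its call (adjusted p = 0.332, exact permutation test). The same change placed mitochondrial rRNA (83.4% against 80.6%), mitochondrial mRNA (84.8% against 78.2%), 18S rRNA (78.9% against 65.8%) and RNase P and MRP RNA (76.8% against 55.7%) above traditional-seq, where the deposited reads gave 62.6%, 69.5%, 59.5% and 49.1%, and 7SK RNA gained a call (84.8% against 70.6%). The mitochondrial rRNA difference did not then pass the test (adjusted p = 0.365, exact permutation test). For lncRNA and mRNA, among the 9 lower classes, the last base with 1 base added was not computed. Without the most abundant gene of the class, the difference turned to -21.2 percentage points for snRNA and -3.13 for box H/ACA snoRNA. The latter was not called (adjusted p = 0.212, exact permutation test).

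In mitochondrial tRNAs the fragments changed in kind. One tRNA, mt-Ts2 (serine, anticodon GCT at bases 20 to 22), gave most of the class, with 4203 to 32818 RPM in PANDORA-seq (median 14768) and 21727 to 44955 RPM in traditional-seq (median 28485). In PANDORA-seq 94.9% ± 0.78 (SD) of its reads were the single 40-nt sequence shown above, and 94.9% to 97.2% of its reads stopped at base 40. In traditional-seq 58.9% ± 16.1 stopped at base 21, 20.4% ± 13.7 at base 19 and 9.98% ± 2.65 (SD) at base 22, within or just before the anticodon. The 21-nt sequence shown above was 32.1% ± 7.12 (SD) of them. Only 0.0194% to 0.183% of the traditional-seq reads stopped at base 40. Both protocols gave 5' fragments of mt-Ts2, which ended in or just before the anticodon in traditional-seq and past it in PANDORA-seq.

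The mitochondrial tRNAs other than mt-Ts2 summed to 1633 to 10999 RPM in PANDORA-seq and 8658 to 15582 RPM in traditional-seq. Their reads touched the 3' end in 34.6% to 69.2% of cases in PANDORA-seq (median 53.5%) and 8.67% to 21.5% in traditional-seq (median 14.8%). They touched the 5' end in 10.3% ± 1.58 against 3.64% ± 0.79, and lay inside the tRNA in 37.6% ± 9.88 against 82.5% ± 4.47 (SD). None of the 3 shares overlapped between the protocols (exact permutation test, adjusted p = 0.000311 for each). Among exact reads, internal fragments of about 21 nt in traditional-seq thus stood against longer fragments that reached an end in PANDORA-seq. The mean lengths were 34.4 ± 0.60 nt in PANDORA-seq and 21.3 ± 0.76 nt (SD) in traditional-seq. Reads with a mismatch do not enter these shares, which bears most on the 5' end. Over base 9 of the tRNAs with G there, traditional-seq had 84360 reads with 1 mismatch and 23664 exact reads. PANDORA-seq had 13068 and 102689. The 5' share with such reads included was not computed.

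Mitochondrial tRNAs did not all differ in level in the same direction. The mean RPM was higher in PANDORA-seq for 6 of 22, and 2 of these, mt-Tp (proline) and mt-Tl1 (leucine), did not overlap. mt-Tp took 184 to 1072 RPM against 31.4 to 89.8 RPM, and mt-Tl1 103 to 276 RPM against 33.1 to 76.5 RPM. In 11 of 22 every PANDORA-seq library lay below every traditional-seq library, and of all genes tested 46.8% did not overlap in either direction. The arginine tRNA mt-Tr took 6.18 to 49.1 RPM against 562 to 2520 RPM, and in traditional-seq 67.3% of its reads stopped at base 48. The tyrosine tRNA mt-Ty took 10.1 to 98.7 against 482 to 2706 RPM, and the histidine tRNA mt-Th 278 to 1700 against 2302 to 4730 RPM. In edgeR with TMM the log2 fold changes were -7.73 ± 0.55 for mt-Tr, -7.19 ± 0.59 for mt-Ty and -4.06 ± 0.45 (SE) for mt-Th, all at an adjusted p of at most 5.12e-07. For mt-Tp and mt-Tl1 they were 1.08 ± 0.44 and -0.23 ± 0.28 (adjusted p = 0.0774 and 0.605). With the total of reads as library size both were positive, at 2.91 and 1.72 (edgeR, adjusted p = 6.65e-09 and 9.34e-05).

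The glutamate tRNA mt-Te (chrM:14071-14139, - strand) is an example of the turn to 3' fragments. Its most abundant sequence is given for both protocols, again with the last base in capitals.
mt-Te, PANDORA-seq, bases 34 to 71: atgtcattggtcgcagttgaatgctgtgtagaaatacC
mt-Te, traditional-seq, bases 40 to 59: ttggtcgcagttgaatgctG
The first is 20.7% of its PANDORA-seq reads and reaches into the CCA, and the second is 9.72% of its traditional-seq reads and lies inside the tRNA. The mean RPM of mt-Te, 1764 with PANDORA-seq, was 1227 with traditional-seq, with overlapping libraries. In edgeR mt-Te was lower with TMM (log2 fold change -1.52, adjusted p = 0.00213) and did not pass the test with the total of reads as library size (0.52, adjusted p = 0.217).

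AlkB acts on methylated bases, so reads over base 9 of mitochondrial tRNAs were counted by the base the reference has there. In the 13 tRNAs with A at base 9, reads that covered it without a mismatch were 4.67% to 13.5% of their reads in PANDORA-seq (median 10.1%) and 0.0660% to 0.562% in traditional-seq (median 0.161%). A mismatch rate was taken as the reads over base 9 with their single mismatch at this base, in percent of these and the exact reads over it, and was 4.81% to 11.8% in PANDORA-seq (median 8.23%) and 44.4% to 73.0% in traditional-seq (median 53.0%). Neither measure overlapped between the protocols, and the mismatch rate was 7.79% ± 2.38 against 57.3% ± 10.8 (SD; exact permutation test, adjusted p = 0.00028). The traditional-seq rates rest on 731 exact reads and 938 with the mismatch at base 9 over 7 libraries, the PANDORA-seq rates on 176729 and 14845 over 8. With reads that had their mismatch elsewhere added to the denominator, the rates were 7.13% and 54.1%, again without overlap.

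In the 6 tRNAs with G at base 9 the mismatch rate was 1.74% to 3.37% in PANDORA-seq and 13.5% to 20.7% in traditional-seq, again without overlap (2.88% ± 0.53 against 16.6% ± 2.82, SD; exact permutation test, adjusted p = 0.00028). This gap rests on the denominator: of 84360 traditional-seq 1-mismatch reads over base 9 of these tRNAs, 4985 had the mismatch there, and with all of them counted the rates were 2.63% ± 0.47 and 5.57% ± 2.97 (SD; exact permutation test, adjusted p = 0.00295), with overlap. In the 3 tRNAs with C or T there it was 0.317% ± 0.010 against 0.415% ± 0.114 (SD), which passed the same test at the same adjusted p but is a far smaller difference, -0.0985 percentage points. Coverage of base 9 by exact reads was higher in PANDORA-seq for the G group (12.6% against 6.69%), but the difference was -8.497 percentage points (adjusted p = 0.0732, exact permutation test) when reads with 1 mismatch were counted too, and 0.669 points when each tRNA weighed the same. The share of 1-mismatch reads over base 9 with their mismatch at that base was also higher in PANDORA-seq for G (22.9% against 8.22%) and lower for A (44.7% against 90.6%). For A the measures thus pointed one way, and for G they did not. Base 9 was counted from the annotated first base of each tRNA, and the measures for G were not split by tRNA. Whether a mismatch site next to base 9, such as base 8 of mt-Th given below, accounts for the split was not tested.

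**Figure D5:**
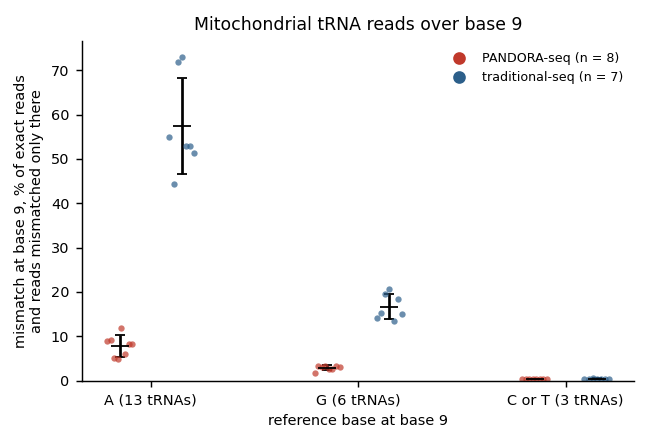
Reads of mitochondrial tRNAs with their single mismatch at base 9, in percent of these and the exact reads over base 9 (vertical axis; reads with a mismatch elsewhere are left out), for tRNAs with A, G, or C or T there in the reference, 1 point a library, with the mean and SD in black. For A the traditional-seq libraries lie at 44.4% to 73.0% and the PANDORA-seq libraries at 4.81% to 11.8%, and for C or T both protocols lie under 1%.

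Single sites with the highest mismatch rate in traditional-seq were looked up after these values were seen, among sites covered by at least 2000 reads in each protocol, counting from 1 at the first base of the tRNA. Picking sites by a high traditional-seq rate favours lower PANDORA-seq rates at them, so the direction was not tested. At base 8 of mt-Th, 91.8% to 94.2% of traditional-seq reads and 12.2% to 51.4% of PANDORA-seq reads had a mismatch (again in percent of these and the exact reads over the site), with A8T the leading change in traditional-seq (56.3% of mismatches) and A8G in PANDORA-seq (51.0%). At base 29 of mt-Ts1 the rates were 64.4% to 88.1% and 5.54% to 46.5%, led by C29T in both protocols. At base 9 of mt-Ty they were 34.5% ± 4.55 against 14.9% ± 3.70, led by G9T, and at base 9 of mt-Tl1 22.5% ± 4.38 against 7.86% ± 2.04 (SD).

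The mitochondrial rRNAs changed in where their fragments started. In traditional-seq 34.2% ± 20.5 of their reads started at a 5' end, led by the first 21 bases of mt-Rnr2 (16S; chrM:1094-2675, + strand), which made up 16.2% ± 12.3 of the reads of that rRNA. In PANDORA-seq 12.3% ± 4.97 (SD) did, and the most abundant mt-Rnr2 sequence, bases 1408 to 1448, made up 7.25%. The mean RPM of mt-Rnr1 (12S) was 2724 against 360, and that of mt-Rnr2 4830 against 2304, with PANDORA-seq replicate 7 at the top of both, at 12370 and 18099 RPM. Without that library the PANDORA-seq means were 1346 and 2934 RPM. In edgeR with TMM neither passed the test (adjusted p = 0.212 and 0.128), and with the total of reads as library size both did (adjusted p = 2.37e-08 and 0.0152).

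Most reads of 5S rRNA ended within 2 nt of the 3' end in both protocols, though not in traditional-seq among sequences of a single gene, as given above. The copy n-R5s124, which received reads that fit several 5S genes, took 35938 ± 10392 RPM in PANDORA-seq and 3115 ± 2131 RPM (SD) in traditional-seq, a log2 fold change of 1.94 ± 0.52 (SE; edgeR, adjusted p = 0.00859). In PANDORA-seq 32.6% ± 11.5 of its reads started at base 85, and in traditional-seq the most frequent start was base 103 with 7.80% ± 3.05 (SD). The most frequent start thus lay further upstream in PANDORA-seq. Reads of a diverged copy of 5.8S rRNA in the reference were few, at 2.37 RPM in PANDORA-seq and 7.43 RPM in traditional-seq.

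The snRNA families did not all move alike. U1, which pairs with 5' splice sites, took 1991 to 8384 RPM in PANDORA-seq and 335 to 782 RPM in traditional-seq. U2, which pairs with the branch site, took 388 to 7078 against 56.2 to 182 RPM, and U5 133 to 1162 against 14.5 to 41.6 RPM. None of these 3 overlapped, and of all genes tested 46.8% did not overlap. U6 took 20.4 to 214 against 14.1 to 29.1 RPM, with overlap. Named after their values were seen, U12 took 232 to 367 against 4.59 to 9.98 RPM, a ratio of means of 47.8, while U7, the RNA of histone mRNA 3' end processing, took 2.29 to 12.8 against 12.6 to 29.5 RPM and was the only family of 7 with a lower mean in PANDORA-seq.

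The most abundant read of the U1 gene Gm26444 began at base 125 in PANDORA-seq (25.6% of its reads) and at base 147 in traditional-seq (38.3%). The mean length of U1 reads was 28.5 ± 2.94 nt in PANDORA-seq and 18.9 ± 0.83 nt (SD) in traditional-seq. For U2 it was 32.6 ± 1.56 against 24.5 ± 0.84 nt and for U7 29.4 ± 1.86 against 19.97 ± 0.97 nt (SD). Length therefore rose also in the family whose level was lower.

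The Y RNAs differed from each other. Rny1 gave 5' fragments in both protocols, with 11820 to 30184 RPM in PANDORA-seq and 5724 to 19434 RPM in traditional-seq, and edgeR with TMM did not call it (log2 fold change -1.34 ± 0.52, SE, adjusted p = 0.0629). That sign is relative to the bulk of genes, most of which rose in RPM, whereas the RPM of Rny1 ranged higher in PANDORA-seq. Rny3 took 2664 to 14380 RPM against 198 to 432 RPM, without overlap, a log2 fold change of 2.17 ± 0.47 (SE; edgeR, adjusted p = 0.00177). In traditional-seq 60.1% of Rny1 reads stopped at base 32, the sequence shown above being 58.6% ± 5.02 (SD) of them. In PANDORA-seq no end held more than 13.9%. The most abundant Rny3 read of PANDORA-seq ran from base 1 to 38 and held 32.3% ± 20.3 of the reads.

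Among box C/D snoRNAs, Snord85 took 63.3 to 341 RPM in PANDORA-seq and 197 to 625.3 RPM in traditional-seq, and its fragment began at base 42 in both protocols. It was lower in edgeR (log2 fold change -3.21, adjusted p = 2.31e-06). Its end lay at base 68 for 63.9% of PANDORA-seq reads and at base 69 for 82.8% of traditional-seq reads. Snord90 rose in edgeR (92.3 to 450 against 9.47 to 30.4 RPM, log2 fold change 1.75 ± 0.32, SE, adjusted p = 0.000375). Among box H/ACA snoRNAs, the most abundant PANDORA-seq sequence of Snora7a lay at its 5' end (bases 1 to 38, 40.1% of reads). In traditional-seq Snora7a had its most abundant sequence at the 3' end (bases 125 to 140, 19.3%). It took 86.1 to 249 against 2.92 to 6.15 RPM (log2 fold change 3.34 ± 0.36, SE; edgeR, adjusted p = 3.30e-07). Snora30 was lower in edgeR (-3.50 ± 0.38, SE, adjusted p = 4.62e-07), with 94.3% of its traditional-seq reads at bases 107 to 126.

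The RNase MRP RNA, Rmrp, which cleaves precursor rRNA, took 320 to 1229 RPM against 92.5 to 338 RPM and did not pass the test in edgeR with TMM (log2 fold change -0.17, adjusted p = 0.81), but did with the total of reads as library size (1.83, adjusted p = 5.67e-05). Its reads began at base 5 in both protocols, as the sequences above show, with the most frequent end at base 37 in PANDORA-seq (28.3%) and base 34 in traditional-seq (46.9%). Rpph1, the RNase P RNA that trims tRNA 5' ends, took 15.0 to 44.8 against 0.316 to 4.65 RPM and rose in edgeR (log2 fold change 1.998 ± 0.45, SE, adjusted p = 0.00236). Rn7sk rose in edgeR as well (801 to 6062 against 107 to 657 RPM, 1.39 ± 0.46, SE, adjusted p = 0.0322), a call that was lost with a replicate block by file code (adjusted p = 0.127), whereas the nuclear lncRNA Malat1 (203.3 to 1942 against 51.8 to 176 RPM) passed the test at an adjusted p of 0.033 in edgeR with a fold just under 2 and was not called. Rn7s1 and the vault RNA Vaultrc5 did not pass the test with TMM in edgeR (adjusted p = 0.636 and 0.566). With the total of reads as library size, Malat1, Rn7s1 and Vaultrc5 all did (log2 fold changes of 2.90, 1.95 and 1.55, adjusted p = 9.37e-09, 3.64e-05 and 0.000258 in edgeR).

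The 5 transcripts that carry stretches of ribosomal RNA were set apart as rRNA-like, chosen after their reads were seen, and Lars2 took 4297 to 25152 RPM against 376 to 7642 RPM and did not pass the test in edgeR with TMM (log2 fold change 0.06, adjusted p = 0.958), but did with the total of reads as library size (1.71, adjusted p = 0.000232). Gm26917 took 470 to 3149 against 12.6 to 72.6 RPM and rose in edgeR (log2 fold change 3.37 ± 0.43, SE, adjusted p = 4.96e-06).

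Whether the difference between the protocols depended on genotype was tested with all 30 libraries. No class differed between AD and WT mice in its PANDORA-seq minus traditional-seq log2 level (permutation of genotype labels within protocol, smallest adjusted p = 0.96). The miRNA difference was -3.72 in AD and -3.89 in WT on the log2 scale. Of 15595 genes none passed the interaction test in edgeR (842 at an unadjusted p under 0.05, 5.40%, smallest adjusted p = 0.476).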

How the data were processed

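Each deposited file held raw counts of the distinct adapter-trimmed sequences of 1 library, as the authors made them, with no normalization; these are counts of reads, not of molecules, since no molecular identifiers were used. The submitters' processing notes name genome build mm 39; the files hold no coordinates. Here, reads of 15 to 42 nt were matched without mismatch and in the sense direction to GENCODE M21 transcripts (GRCm38), with CCA added to mitochondrial tRNAs, 2 T to 73 5S rRNA copies, and the reverse complement of the annotated antisense transcript used for 18S rRNA. A sequence that fit several genes of a class was counted at the gene with the most fitting reads. Reads with 1 mismatch to mitochondrial tRNAs were counted from 20 nt.

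Class values were compared by two-sided exact permutation tests over libraries with Benjamini-Hochberg adjustment within each family of tests. Class levels were tested as log2 RPM. End and last base shares were tested in classes of at least 100 RPM, and end shares also only where they reached 1%. In these tests snoRNAs whose symbol gives no box type and rRNA-like transcripts were left out. Genes were fitted with edgeR 4.0.16 (R 4.3.3; filterByExpr, TMM, quasi-likelihood test), and DESeq2 1.42.0 was an alternative. Reads were matched with a program compiled by g++ 11.4.0, and tables were made in Python 3.11.15 with numpy 2.4.6 and pandas 2.3.3. On simulated counts of the 13058 genes for this comparison, 192 of 200 genes changed by a fold of 4 were called, and 11 unchanged genes. The simulation gave all genes the same fixed dispersion, raised as many genes as it lowered and left the rest equal. It therefore does not cover the spread of single genes or the shift of most genes seen in these data.

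The members, lists and tests were chosen with earlier results of these data known. Named genes were the mitochondrial tRNAs and rRNAs, the 3 genes with the highest mean level of each other class, the 5 called genes with the largest fold change per direction at a mean of at least 10 RPM without overlap, and a list of small RNA genes. U7, U11 and U12, the single mismatch sites, the rRNA-like group, the shift of ends, the extension of PANDORA-seq reads by 1 base and the wider denominator at base 9 were added after values had been seen. Alternatives covered the normalization, the filter, the matching, the end definition, the denominator, pairing and each library left out. Reads of 43 to 45 nt, which only PANDORA-seq files hold, and U4 snRNA were not analysed here.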

Additional observations from a re-analysis of the deposited data

Results flagged for a closer look

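Of 140 sets of 7 or 8 libraries of 1 protocol that were checked, 13 held a library far from the others, and chance alone is set to flag about 1 in 20. PANDORA-seq replicate 7 had 30469 RPM of mitochondrial rRNA, where the other libraries had 2155 to 7496 RPM, and a mean Y RNA length of 29.5 nt against 31.1 to 32.4 nt. PANDORA-seq replicate 3 had 3414 RPM of snRNA against 6141 to 10131 RPM. PANDORA-seq replicate 5 had a mean length of 27.6 nt in rRNA-like transcripts (others 29.0 to 29.7 nt) and of 31.2 nt in 7SK RNA (others 32.6 to 33.6 nt), and 61.4% of its 7SK reads ended in C or T (others 71.9% to 77.0%). In PANDORA-seq replicate 6, 68.5% of 5S rRNA reads stopped at the 3' end (others 80.0% to 90.2%).

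In traditional-seq replicate 4, 96.5% of miRNA reads started and 94.5% stopped near an arm's end (others 98.5% to 99.4% and 96.8% to 98.1%), and 73.9% of mRNA reads ended in C or T (others 63.4% to 67.5%). Traditional-seq replicate 3 had 69.9% of Y RNA reads at the 5' end (others 80.5% to 85.6%). Traditional-seq replicate 2 had 2.40% of 7SL reads at the 5' end (others 0.0280% to 0.938%) and 50.6% of box H/ACA snoRNA reads ending in C or T (others 57.1% to 61.9%).

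Reads of 43 to 45 nt, outside the compared range, made up 4.95% of the reads of the PANDORA-seq files on average and 2.13% to 10.7% over the libraries.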

How the results depend on the processing

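Of 1717 recomputed values with a test, 1628 kept their side of the threshold, 45 lost the call, 16 gained one and 28 reversed. A turn of direction where neither value was called was not counted as a reversal and is among the 1628. Of 48 recomputed counts of genes, 44 stayed within 1.5 times. The cause was not tested except where the setting itself removes reads or libraries. All differences are PANDORA-seq minus traditional-seq, levels on the log2 scale, shares in percentage points and lengths in nt.

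With library size in place of TMM, 11603 genes were higher and 389 lower, and with a filter of 10 reads 2626 and 2042. With RPM on a linear scale the calls of mt-mRNA (-2261 RPM) and mt-rRNA (4890 RPM) were lost. With matched reads as denominator the mt-mRNA level turned to 0.16 and mt-tRNA lost its call at -0.50. Without sequences of 1 read the mt-mRNA call was lost at -0.67. At base 9 with G, coverage turned to -8.50 with 1 mismatch allowed and fell to 0.669 with equal weight per tRNA.

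With PANDORA-seq reads extended by 1 base, an alternative chosen after seeing the data, reversals were Y RNA 3' share 2.83, last base of 18S rRNA 13.002, RNase P and MRP 21.04, mt-mRNA 6.67 and mt-rRNA 2.86, and length of RNase P and MRP 0.901 and miRNA 0.521; 7SK last base (14.2) and Y length (1.70) gained a call and snRNA last base (7.29) lost it. With each distinct sequence counted once, reversals were the 3' share of 5S (-9.43), C/D (-8.74) and mt-tRNA (-0.621), the 5' share of 5S (-0.144), the last base of 5S (-3.09), 7SK (-7.68), H/ACA (-6.39) and snRNA (-7.32), and the length of RNase P and MRP (3.03) and miRNA (3.25); 7SK 3' share (-0.130), H/ACA 5' share (0.432) and C/D last base (-1.22) lost the call, and H/ACA 3' share (-19.1), Y 5' share (-10.8) and Y length (2.15) gained one.

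With an end taken within 5 nt, the 3' share reversed for Y (0.701) and C/D (-5.20) and was called for H/ACA (-39.6), and the mt-tRNA 5' share lost its call (2.74). With exact ends, the 3' share reversed for 5S (-43.3) and mt-tRNA (-2.30), lost its call for Y (-0.0991) and gained one for H/ACA (-17.9) and snRNA (-44.7), and the miRNA 5' share lost its call (-1.75). Without the most abundant gene, the last base reversed for H/ACA (-3.13) and snRNA (-21.2) and length for RNase P and MRP (6.37), 5S 3' share (45.4) and Y length (3.91) gained a call and 5S 5' share (2.54) lost it. With sequences of 1 gene only, the 5S 5' share (-0.215) and snRNA last base (-16.8) reversed, 5S 3' share (62.2), snRNA 3' share (-16.0) and 7SK last base (20.4) gained a call and 7SL last base (-13.2) lost it.

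Libraries were not shown to be pairs: correlations of same-code libraries were -0.138 to 0.297 and of same-number libraries -0.215 to 0.218, each best with its own in 1 of 7. With a replicate block by code, calls were lost for the gene Rn7sk (adjusted p = 0.127), 7SK 3' share (-1.07), the last base of 5S (6.07) and H/ACA (11.9), and the levels of Y (0.75), mt-mRNA (-0.82) and other snoRNA (0.76); with a replicate block by title number, for the 3' share of Y (-6.96), the 5' share of miRNA (-2.46), mt-rRNA (-22.3) and mt-tRNA (15.3), the last base of 5S (5.94), H/ACA (10.1) and lncRNA (-5.55), and the mt-rRNA level (1.07). The smallest p with 7 pairs is 0.0156. With 1 library left out in turn, the differences ranged from -0.98 to -0.62 for the mt-mRNA level, 0.61 to 1.16 for mt-rRNA, 4.39 to 7.33 for 5S last base (lost without PANDORA-seq replicate 4 or traditional-seq replicate 5 or 7), 0.985 to 3.51 for 7SK last base (gained without PANDORA-seq replicate 5), 0.559 to 0.978 for Y length and 0.461 to 0.856 for 7SL 5' share (gained without traditional-seq replicate 2); 1024 to 1455 genes were higher and 1065 to 1258 lower.

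Traditional-seq depth limits rare fragments such as those over base 9. The difference in depth also enters the values where each distinct sequence was counted once. AlkB, T4PNK and any other difference between the library sets cannot be told apart.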

Other observations

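RefSeq mature arms were found for 898 of 1555 miRNA hairpins with reads, and those hairpins held 84.5% of miRNA reads in PANDORA-seq and 95.4% in traditional-seq.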
